A study of Mus musculus with 14 samples.

Results

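The transcriptome of the medial prefrontal cortex (mPFC) was compared between 3 mice that were resilient to repeated social defeat stress and 5 naive mice, which are 8 of the 14 arrays of the series. The arrays were chosen by their titles and not by any measured value. All mice were wild-type C57BL/6. Naive mice were moved between cages, and resilient mice were defeated repeatedly and then classed as resilient by their behaviour, with a criterion that the sources used here do not give. The other defeated mice, 6 classed as susceptible, entered the same statistical fit and are used here only to set the resilient values beside them. All groups were perfused 4 h after their final session, the tissue was taken with a 1.5 mm punch, and RNA of 1 mouse (35 ng) was labelled with Cy3 for each 1-colour array. Sex, age and the number of sessions are not given in the sources used here, and a punch holds neurons, glia and vessels together.

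The mPFC is a frontal cortical region that takes part in the control of emotional and social behaviour. In social defeat a mouse is placed with an aggressive mouse, and some of the defeated animals later avoid others while the rest do not; the latter are called resilient. Defeat activates the adrenal axis, so that glucocorticoid receptors in brain cells switch on target genes, and neuronal activity switches on immediate early genes. Secretory cells under load raise the chaperones of the endoplasmic reticulum (ER) through the unfolded protein response.

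Levels are given as the log2 of the scanner's background-subtracted signal minus the 75th percentile of that array, so that 0 is the 75th percentile of an array and 1 unit is a doubling of signal. Levels of different genes on this scale depend on their probes and are not compared with each other. The arrays lay on 3 slides. Slide 1 held naive 1, resilient 1 and 2 and susceptible 1 and 2, slide 2 held naive 2 and 3, resilient 3 and susceptible 3 and 4, and slide 3, scanned on another day, held naive 4 and 5 and susceptible 5 and 6 but no resilient mouse. Array brightness, the 75th percentile before it was subtracted, was 7.31, 7.36, 7.25, 8.54 and 8.64 in the naive mice and 8.17, 7.96 and 7.97 in the resilient mice. On slides 1 and 2 every naive array was therefore dimmer than every resilient array. On each slide the naive arrays were in row 1 and the arrays of defeated mice in row 2, and position and defeat cannot be told apart. Between 48.0% and 65.4% of spots were well above background on an array, and no spot was saturated. Neuronal and cortical markers were measured in all mice, which does not tell the mPFC from other cortex: the 10 pan-neuronal genes averaged 4.43 to 4.65 in naive and 4.72 to 4.88 in resilient mice, and the 12 genes of cortical excitatory neurons 1.73 to 1.96 and 1.62 to 1.82.

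In resilient mice the secreted proteins Lcn2 and Lrg1, the activity-regulated genes Arc and Fos, the ER proteins Hspa5 and Creld2, the heat shock proteins Hspa1a and Hsph1 and 4 genes of the circadian clock were higher than in naive mice. The brain fatty acid-binding protein Fabp7, members of the S100 family and 29 ribosomal protein genes were lower. In limma, with all 14 arrays in 1 fit and slide as a block, 511 of 14453 genes (3.54%) passed an adjusted p of 0.05, of which 295 (2.04%) were higher and 216 (1.49%) lower in resilient mice. The smallest adjusted p was 0.0280, and 3861 genes (26.7%) had an unadjusted p under 0.05. The median difference was 0.62 among the genes that rose and -0.69 among those that fell, and 67 genes, 28 higher and 39 lower, differed at least 2-fold. Differences below are resilient minus naive on the log2 scale with the standard error (SE) of this fit (n = 3 and 5), and "adjusted p" is that of this fit.

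The choice of settings bears on the whole list. All 511 differences had the same sign within slide 1 and within slide 2, but no gene passed when array brightness was added to the fit (531 with an unadjusted p under 0.05), and its part in the result was not tested. A block for the replicate number added to slide left 0 genes (3430 with an unadjusted p under 0.05), with the difference of each of the 511 genes keeping its sign, and quantile normalisation gave 1030 genes with a larger share of rises (74.7% against 57.7%). The number of genes also rested on single mice: it was 0 without naive 1, naive 2 or resilient 3, 1 without resilient 1, 2 without susceptible 5, 4 without susceptible 2, 99 without resilient 2, 199 without naive 4, 327 without naive 3 and 1187 without susceptible 6. Each of the 61 genes that passed and were taken by the naming rule kept its call in 3 to 10 of the 14 fits that leave out 1 mouse, and each kept its sign in the fit with brightness and in the fit with the replicate block. With brightness 52 of the 61 differences became smaller, 27 of them by more than 1.5 times, and the median ratio to the reported difference was 0.70. The ratios ran from 0.21 to 1.36. Among the genes named below Kcnh1 went from 0.76 to 0.16, Alox12b from 1.01 to 0.23, Htr2a from 0.90 to 0.32 and Pkp2 from 1.28 to 0.53.

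**Figure D1:**
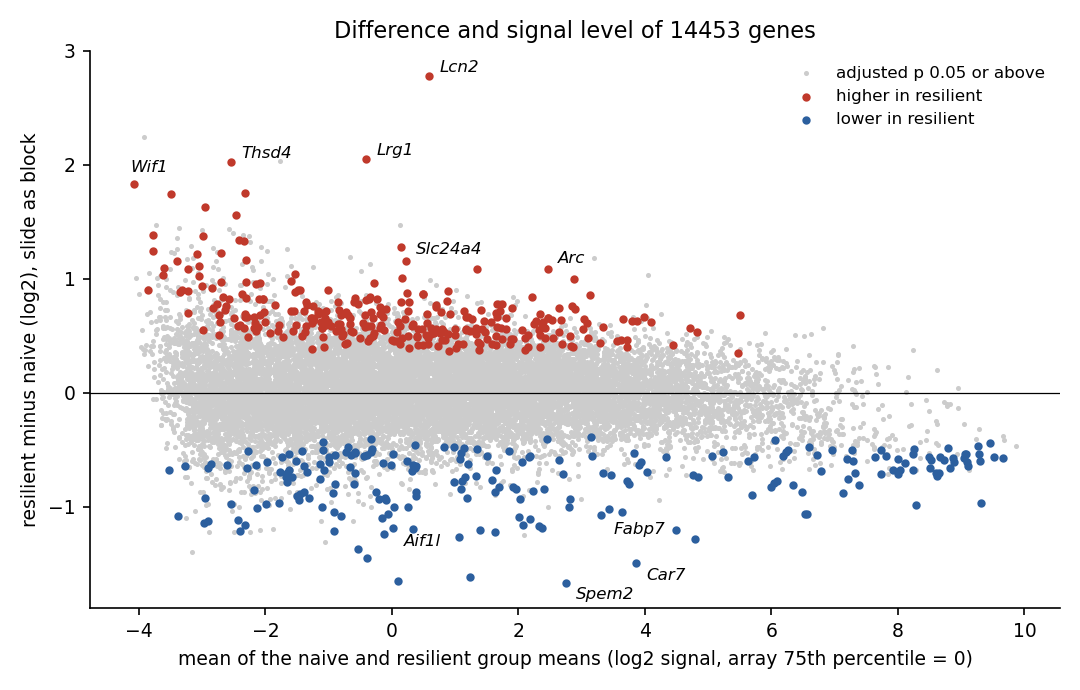
Each point is 1 of the 14453 genes, with the mean of its naive and resilient group means on the x axis (log2 signal, array 75th percentile = 0) and resilient minus naive on the y axis (log2, slide as block). Red points are the 295 genes that were higher and blue points the 216 that were lower at adjusted p under 0.05, with Lcn2 highest at 2.78.

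The naive mice of slide 3 set many of the overlaps between the groups. Of the 511 genes, 252 did not overlap between the 5 naive and the 3 resilient mice, against 14.7% of all genes tested; 150 of them were higher and 102 lower, against 8.32% and 6.41% of all genes. Among the mice of slides 1 and 2 alone 507 of them did not overlap, against 34.4% of all genes, so that in 255 of the 259 overlapping genes it was naive 4 or naive 5 that reached the resilient values. The rises lay toward lower signal and the falls toward higher signal. With the genes split into 4 equal bins by signal, 80 were higher and 38 lower in the dimmest bin, and 39 were higher and 89 lower in the brightest. Of the rises 57 of 295, and of the falls 4 of 216, were not well above background on all arrays of both groups. A gene was tested when every array of 1 group had it above background, and 14 of the rises and 1 of the falls entered the test through the resilient arrays alone. Wif1, Grem1 and Adamts3 are among these rises, so that their selection already favoured a higher resilient level.

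The largest rise among genes measured on every array was that of Lcn2, which encodes lipocalin 2, an acute phase protein that binds iron-carrying siderophores. Its level was -0.75, -0.55, -0.52, -1.21 and -1.12 in naive mice 1 to 5 and 3.06, 0.58 and 2.38 in resilient mice 1 to 3. All resilient mice lay above all naive mice, and resilient 2 lay well below the other resilient mice. The difference was 2.78 ± 0.57 (adjusted p = 0.0326), a 6.87-fold higher signal, and it was 2.58 within slide 1 and 2.92 within slide 2. Lrg1, a secreted leucine-rich glycoprotein of the acute phase, stood at -1.44, -1.98, -1.32, -1.48 and -0.67 in naive and at 1.48, -0.62 and 0.79 in resilient mice. Here too the groups did not overlap, although resilient 2 exceeded naive 5 only slightly, and the difference was 2.05 ± 0.47 (adjusted p = 0.0398). Susceptible mice stood above naive mice by 3.33 ± 0.44 for Lcn2 and by 2.32 ± 0.36 for Lrg1, and resilient minus susceptible was -0.55 ± 0.53 and -0.27 ± 0.44, neither of which passed (adjusted p of 1 for each).

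Of 14 tested genes of the acute phase and inflammatory response, Lrg1 was the 1 that rose (7.14%, against 2.04% of all genes) and none fell. The list holds 25 genes, and Il1b, Il6, Tnf, Ccl2, Cxcl1 and Icam1 are among those not tested. The median difference of the list was 0.61 against 0.02 over all genes. The following members were picked after their values were seen. S100a8, a calprotectin subunit of neutrophils, was not well above background in any naive mouse and was so in 3 of 3 resilient mice, at -1.65, -2.39 and -3.36; the difference did not pass (adjusted p = 0.0567), and the gene entered the test through the resilient arrays alone. With the naive mice set to the lowest signal well above background on their arrays, its signal was at least 2.24-fold higher within slide 1. On slide 2 the single resilient mouse lay below that bound, so that no fold is given there. Its partner S100a9 was at -4.39, -2.29, -1.52, -3.47 and -3.44 in naive and at 0.37, -0.41 and -1.55 in resilient mice, so that the groups overlapped and the difference of 2.04 ± 0.83 did not pass (adjusted p = 0.139). For both the difference was larger within slide 1 than within slide 2, at 4.37 and 0.36 for S100a9. Resilient minus susceptible was -1.65 ± 0.57 for S100a8 (unadjusted p = 0.0133, adjusted p = 1). Toll-like receptor 4, a receptor for bacterial lipid and damage signals, was -0.35 ± 0.31 (adjusted p = 0.487) and well above background in 5 of 5 naive and 2 of 3 resilient mice. Tlr2 was above background in 3 of 5 naive and 2 of 3 resilient mice and was not tested.

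Genes induced by glucocorticoids leaned upward, but with 1 exception they missed the threshold. Of 30 genes 1 rose, Lcn2 (3.33%, against 2.04% of all genes), and none fell, and the median was 0.49. An unadjusted p under 0.05 was found for 16 of them, against 26.7% of all genes. The mean over the list was 1.57, 1.69, 1.92, 1.75 and 1.71 in naive and 2.56, 2.18 and 2.05 in resilient mice, with every resilient mouse above every naive mouse. Fkbp5, a co-chaperone that dampens the glucocorticoid receptor, was at 1.72, 1.65, 2.36, 1.68 and 1.65 in naive and at 3.64, 3.21 and 2.52 in resilient mice. The naive mice were tightly grouped apart from naive 3, whose value came close to that of resilient 3 on the same slide, and the difference of 1.09 ± 0.31 did not pass (adjusted p = 0.0635; 1.70 within slide 1 and 0.51 within slide 2).

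Other members showed the same slide dependence and were picked after their values were seen. Tsc22d3, which encodes the glucocorticoid-induced leucine zipper protein, differed by 1.03 ± 0.27 (adjusted p = 0.0519; 1.50 within slide 1 and 0.55 within slide 2). Zbtb16, a transcriptional repressor, differed by 0.75 ± 0.20 (adjusted p = 0.0549), and Plin4, a lipid droplet coat protein, by 1.07 ± 0.32 (adjusted p = 0.0714; 1.84 within slide 1 and 0.26 within slide 2). Per1 and Sgk1, both known targets of the receptor, were at 0.10 ± 0.13 and 0.24 ± 0.26. The list's median was 0.64 within slide 1 and 0.27 within slide 2, and it was 0.16 with brightness in the fit. The receptor gene itself, Nr3c1, was 3.53, 3.51, 3.70, 3.51 and 3.57 in naive and 2.85, 3.23 and 3.25 in resilient mice; all resilient values were lower, and the difference of -0.37 ± 0.12 did not pass (adjusted p = 0.0952).

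Among immediate early genes, which neurons transcribe within minutes of activity, Arc and Fos rose. Arc, whose protein regulates AMPA receptor traffic at synapses, was at 1.55, 2.02, 1.90, 2.44 and 2.23 in naive and at 2.56, 2.91 and 3.22 in resilient mice. Every resilient mouse lay above every naive mouse, and the difference was 1.08 ± 0.21 (adjusted p = 0.0293; 1.19 within slide 1 and 1.26 within slide 2). Fos, a subunit of the AP-1 transcription factor, was a dim gene, well above background in 3 of 5 naive mice, at -3.39, -2.30, -2.90, -2.38 and -2.72 in naive and -1.91, -2.15 and -1.57 in resilient mice. Its groups did not overlap either, by a margin of less than the spread within a group, and the difference was 1.17 ± 0.22 (adjusted p = 0.0293). With brightness in the fit Arc was at 1.38 and Fos at 1.41, where neither passed; unlike these, 52 of the 61 called genes taken by the naming rule became smaller.

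Of the 23 immediate early genes tested 2 rose (8.70%, against 2.04% of all genes) and none fell, 20 differences were positive and the median was 0.44. Fosb was at 0.44 ± 0.13 (adjusted p = 0.0627), Junb at 1.23 ± 0.35 (adjusted p = 0.0626), Nr4a1 at 0.53 ± 0.19 (adjusted p = 0.106) and Npas4 at 0.47 ± 0.23 (adjusted p = 0.216), all below the threshold and picked after their values were seen. The susceptible mice had a median of 0.17 for the same list against the same naive mice, with Arc at 0.96 ± 0.16 and Fos at 0.82 ± 0.17.

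**Figure D2:**
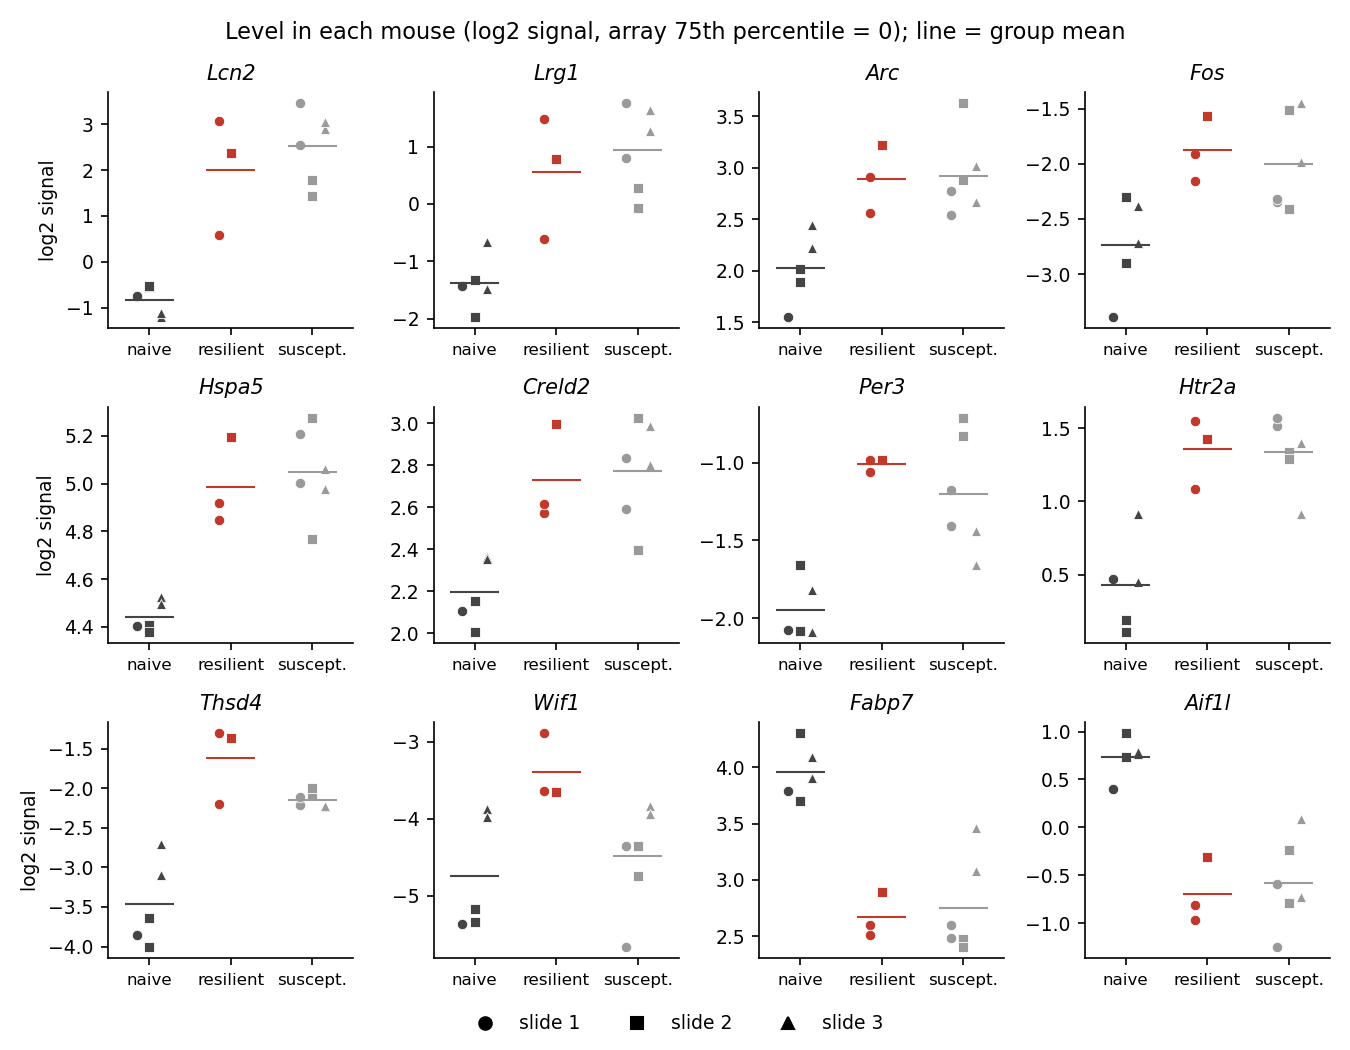
Each panel shows 1 gene, with the log2 signal (array 75th percentile = 0) of every mouse by group, marker shape for the slide and a line at the group mean. For Lcn2, Lrg1, Arc, Fos, Hspa5, Creld2, Per3, Htr2a, Thsd4 and Wif1 every resilient mouse lies above every naive mouse, and for Fabp7 and Aif1l every resilient mouse lies below every naive mouse.

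Of the ER stress genes Hspa5 and Creld2 rose. Hspa5, which encodes the main ER chaperone BiP, was at 4.40, 4.41, 4.38, 4.53 and 4.50 in naive and at 4.92, 4.85 and 5.19 in resilient mice. The naive mice were close to each other and all resilient mice lay above them, with a difference of 0.57 ± 0.13 (adjusted p = 0.0411), or 1.48-fold. Creld2, an ER protein induced by misfolding, was at 2.11, 2.00, 2.15, 2.36 and 2.35 in naive and 2.57, 2.62 and 3.00 in resilient mice, again without overlap, and differed by 0.65 ± 0.15 (adjusted p = 0.0408). Of the 23 tested genes of the list these 2 passed as higher (8.70%, against 2.04% of all genes) and none as lower. The list had 19 positive differences and a median of 0.30 (0.20 within slide 1 and 0.37 within slide 2). Dnajc3 (0.47 ± 0.15), Xbp1 (0.31 ± 0.10), Atf4 (0.31 ± 0.11) and Pdia6 (0.43 ± 0.16), picked after their values were seen, were positive without passing, and Ddit3, the proapoptotic factor CHOP, was at -0.06 ± 0.11.

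The ER stress response element, which binds NF-Y and ATF6, was searched on both strands of the 250 bases before each gene's start (RefSeq, GRCm38.p6) as CCAAT, 9 free bases and CCACG. It was present in 37 of 32851 windows (0.113%), and in 17 of the 11499 tested genes that have a window. Among the genes that rose, 3 of 236 with a window held it, Hspa5, Creld2 and Ero1b, and among those that fell 0 of 167 did. Ero1b, an oxidase that recharges protein disulfide isomerases in the ER, was found through this search and rose by 0.49 ± 0.11 (adjusted p = 0.0398). Over the 17 tested genes with the element 11 differences were positive and 6 negative, with a median of 0.21, so that a window with these letters did not by itself mark a rise. The windows of the 3 genes are shown because they are the genes that both rose and hold the element. They run 5′ to 3′ on the strand of the gene, with the matched letters in capitals, which begin 65, 126 and 201 bases before the start in Hspa5, Creld2 and Ero1b. In Creld2 and Ero1b the match is on the opposite strand.
Hspa5, GRCm38.p6 chr2:34771840-34772089, plus strand: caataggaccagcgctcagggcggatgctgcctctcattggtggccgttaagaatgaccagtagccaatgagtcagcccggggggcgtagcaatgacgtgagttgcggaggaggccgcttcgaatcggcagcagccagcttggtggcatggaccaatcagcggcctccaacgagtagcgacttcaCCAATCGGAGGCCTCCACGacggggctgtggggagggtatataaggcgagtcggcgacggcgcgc
Creld2, GRCm38.p6 chr15:88819396-88819645, plus strand: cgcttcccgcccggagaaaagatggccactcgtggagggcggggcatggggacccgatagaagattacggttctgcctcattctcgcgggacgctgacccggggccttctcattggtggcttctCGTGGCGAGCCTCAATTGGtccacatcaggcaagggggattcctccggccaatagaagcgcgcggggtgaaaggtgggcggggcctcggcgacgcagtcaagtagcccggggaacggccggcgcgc
Ero1b, GRCm38.p6 chr13:12565633-12565882, plus strand: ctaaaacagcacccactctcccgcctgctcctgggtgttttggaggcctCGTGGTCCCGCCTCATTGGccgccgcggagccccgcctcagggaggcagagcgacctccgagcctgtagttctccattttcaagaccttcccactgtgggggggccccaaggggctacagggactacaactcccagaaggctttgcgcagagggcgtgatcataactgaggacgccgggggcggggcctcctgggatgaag

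Other elements tied to the gene groups were searched in the same windows. The heat shock element, searched as GAA, TTC and GAA with 2 free bases between them, was in 0.466% of windows and 0.452% of tested genes with a window. It was in 3 of the 236 higher genes (Prkrip1, Timm9 and 2310022A10Rik), none of them a heat shock gene, and in 0 of 167 lower genes. The 250 bases before Hspa1a and Hsph1 did not hold these letters. The palindromic glucocorticoid response element, searched as G, 1 free base, ACA, 3 free bases, TGT, 1 free base and C, was in 0.387% of windows and 0.383% of tested genes with a window. It was in 1 of the 236 higher genes, Atf7ip, and in 0 of 167 lower genes. The E-box CACGTG, the site of the clock factors, was in 6.02% of windows and in 1079 of the 11499 tested genes with a window (9.38%). It was in 23 of 236 higher genes and in 16 of 167 lower genes, near that share of tested genes. The windows of Per3 and Nfil3 did not hold it, and Per2 and Bhlhe40 had no window. A match is a description of letters and does not show a bound site.

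Cytosolic heat shock proteins were represented by 2 rises among 21 tested genes (9.52%, against 2.04% of all genes), with no fall and a median of 0.16. Hspa1a, the inducible HSP70, was at -1.97, -2.35, -2.83, -1.46 and -1.55 in naive and -1.38, -1.24 and -0.87 in resilient mice. The 2 groups were separated by a narrow gap between naive 4 and resilient 1, and the difference was 0.98 ± 0.25 (adjusted p = 0.0483), more than 1.5 times as large within slide 2 (1.72) as within slide 1 (0.67). Its close paralog Hspa1b was not tested, and whether the probe tells the paralogs apart was not tested. Hsph1, a nucleotide exchange partner of HSP70, was at 3.73, 3.64, 3.44, 4.25 and 4.20 and 4.34, 4.32 and 4.36, a difference of 0.62 ± 0.14 (adjusted p = 0.0369). Naive 4 and 5 lay close to the resilient mice for Hsph1 and naive 1 to 3 lay lower.

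Of 20 clock genes 4 rose and none fell, a share of 20.0% against the 2.04% of all genes that rose, although the list was chosen with earlier results of these data known. Per3, a period gene of the repressor arm, was at -2.08, -1.66, -2.08, -2.09 and -1.82 in naive and at -0.98, -1.06 and -0.98 in resilient mice, a difference of 0.91 ± 0.17 (adjusted p = 0.0293). Per2, its paralog, was at -1.90, -1.65, -1.95, -1.90 and -1.64 and -1.60, -1.34 and -1.06 and differed by 0.54 ± 0.13 (adjusted p = 0.0407). All resilient mice exceeded all naive mice for both genes, for Per2 by a small margin. Nfil3, a repressor that competes with PAR bZIP factors, rose by 0.74 ± 0.15 (adjusted p = 0.0335), and Bhlhe40, a repressor that is also induced by activity and by hypoxia, rose by 0.65 ± 0.14 (adjusted p = 0.0369).

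The rest of the clock did not pass in either direction, and the list's median was 0.18. Per1 was at 0.10 ± 0.13, Dbp, an output factor, at 0.00 ± 0.13, and Arntl, the BMAL1 activator, at 0.41 ± 0.12 (adjusted p = 0.072). Per1, Dbp and Arntl were picked after their values were seen. The time of day of sampling is not given in the sources used here. In susceptible mice Per3 stood 0.75 ± 0.13 and Nfil3 0.71 ± 0.12 above the same naive mice.

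Membrane receptors and signalling genes were among the larger rises. Htr2a, the serotonin 2A receptor of cortical pyramidal cells, was at 0.47, 0.19, 0.11, 0.45 and 0.91 in naive and 1.55, 1.09 and 1.43 in resilient mice without overlap. The difference was 0.90 ± 0.20 (adjusted p = 0.0369). Htr2a was the 1 called gene of 19 monoamine receptors and enzymes (5.26%, against 3.54% of all genes). Slc24a4, a sodium, calcium and potassium exchanger, was at 0.96, 0.65 and 0.78 in resilient mice, all above a highest naive value of 0.01, and rose by 1.16 ± 0.21. Every resilient mouse lay above every naive mouse for both genes. Rgs16, which shortens G protein signals, rose by 0.90 ± 0.17, with -1.52, -1.56, -2.07, -0.67 and -0.81 in naive and -0.58, -0.82 and -0.67 in resilient mice; the naive mice of slide 3 lay among the resilient mice.

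Pkp2, a desmosome plaque protein, was at -0.53, -0.65, -0.20, -0.82 and -0.51 in naive and 1.36, 0.51 and 0.67 in resilient mice and rose by 1.28 ± 0.25 (adjusted p = 0.0293). Rsrp1, an arginine and serine rich protein, was at 2.24, 2.44, 2.60, 2.41 and 2.43 and 3.28, 3.20 and 3.51 and rose by 1.00 ± 0.14 (adjusted p = 0.0291), with nearly equal differences within both slides (1.00 and 0.99). Neither gene overlapped between the groups. The remaining large rises among genes measured on every array were those of Alox12b, an epidermal lipoxygenase (1.01 ± 0.22), and Inka2, an inhibitor of the kinase PAK4 (0.96 ± 0.23). Ankrd52, a regulatory subunit of a protein phosphatase (0.90 ± 0.17), and C2cd4c (0.88 ± 0.20) completed them. For C2cd4c naive 5 lay among the resilient mice. A dimmer probe of Alox12b, above background on all arrays, gave 0.96 within slide 1 and 0.04 within slide 2, against 1.41 and 0.80. Map2k6 (0.88 ± 0.16) and Map2k1 (0.65 ± 0.16), kinases of the p38 and ERK cascades, rose among 33 genes of the mitogen-activated protein kinase pathway (6.06%, against 2.04% of all genes). Mapk11, the p38 beta kinase, fell by 0.93 ± 0.17 (3.03%, against 1.49%). For Map2k1 naive 4 and 5 (3.50 and 3.76) lay above all resilient mice (3.06, 3.26 and 3.19). Kcnh1, a voltage-gated potassium channel, was the 1 riser of 36 potassium channel genes (2.78%, near the 2.04% of all genes that rose). Its difference was 0.76 ± 0.17, although naive 4 and 5 lay above all resilient mice. It was above background in 2 of 5 naive mice.

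Several of the largest rises were in dim genes. Thsd4, a thrombospondin-repeat protein of microfibrils, was at -3.86, -4.01, -3.64, -2.70 and -3.09 in naive and -1.30, -2.20 and -1.37 in resilient mice, without overlap, and was well above background in 2 of 5 naive and 3 of 3 resilient mice. Its difference was 2.02 ± 0.27 (adjusted p = 0.0291). Adamts3, a procollagen protease that also cleaves reelin, was not well above background in any naive mouse and was so in all 3 resilient mice, which entered it into the test (adjusted p = 0.0293). Its signal was at least 1.08-fold higher with the naive mice of slides 1 and 2 set to the lowest signal well above background on their arrays, and its difference was -0.025 with normexp background correction. These 2 were the rises among 22 genes of matrix proteases and thrombospondin-repeat proteins (9.09%, against 2.04% of all genes). That share counts Adamts3, which only the resilient arrays entered into the test, so that nothing is drawn from it. The list had no fall and a median of 0.17.

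Grem1, a secreted antagonist of bone morphogenetic proteins, was at -4.88, -5.42, -3.72, -3.62 and -3.52 in naive and -3.01, -3.33 and -1.94 in resilient mice (1.75 ± 0.44, adjusted p = 0.0477; tested through the resilient arrays alone), and Sorbs2, a cytoskeletal adaptor, at -3.73, -3.88, -5.00, -3.09 and -2.81 and -2.06, -2.38 and -2.21 (1.63 ± 0.34, adjusted p = 0.0329). Both were well above background in 2 of 5 naive mice. Erich1 was at -3.39, -3.32, -2.51, -3.04 and -3.61 and -2.72, -0.96 and -0.71; resilient 1 lay among the naive mice and the other resilient mice above them (1.76 ± 0.39, adjusted p = 0.0369).

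Wif1, a secreted inhibitor of Wnt proteins, had the smallest unadjusted p between resilient and susceptible mice. It was at -5.36, -5.34, -5.17, -3.88 and -3.98 in naive and -3.64, -2.88 and -3.65 in resilient mice, a difference of 1.83 ± 0.30 (adjusted p = 0.0291), tested because all resilient arrays had it above background. The lowest, median and highest susceptible values were -5.67, -4.36 and -3.84, all below the resilient mice. It was well above background in 2 of 5 naive, 3 of 3 resilient and 2 of 6 susceptible mice. The lowest signal well above background was -3.18, -3.22 and -2.97 on the arrays of naive 1 to 3, so that the levels of resilient 1 and 3 would not have counted as above background there.

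The falls included a group of calcium-binding and lipid-binding proteins. Fabp7, a fatty acid carrier of astrocytes and neural progenitors, was at 3.79, 3.70, 4.31, 4.09 and 3.91 in naive and at 2.60, 2.51 and 2.89 in resilient mice. The gap between the groups exceeded the range within either group, and the difference was -1.07 ± 0.20 (adjusted p = 0.0291; -1.23 within slide 1 and -1.12 within slide 2). S100a16, a calcium-binding S100 protein, was at 4.04, 4.34, 4.28, 4.25 and 4.26 and 3.12, 3.26 and 3.42, again with a wide gap, and differed by -0.81 ± 0.11 (adjusted p = 0.0291). S100a13 (-0.70 ± 0.16) and S100a4 (-0.60 ± 0.13) also fell without overlap. Of 14 tested S100 and fatty acid-binding protein genes 4 fell (28.6%, against 1.49% of all genes) and none rose, with 13 negative differences and a median of -0.44. The list does not cover the whole S100 family. It leaves out S100a8 and S100a9, whose differences were positive without passing, and it includes S100pbp, which encodes an S100-binding protein. S100b, the astrocyte member, was at -0.61 ± 0.17 (adjusted p = 0.0611), picked after its value was seen. Aif1l, an actin-binding relative of the microglial protein Iba1, was at 0.40, 0.99, 0.74, 0.77 and 0.79 and -0.96, -0.80 and -0.31 and fell by 1.18 ± 0.21 on the log2 scale (adjusted p = 0.0291), without overlap. In tissue punches fewer cells of a type and less RNA per cell cannot be told apart.

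Beside these falls 10 of 12 astrocyte marker differences were negative, with a median of -0.22. Aldoc, a glycolytic aldolase, was the 1 that fell (-0.57 ± 0.13, adjusted p = 0.0369), or 8.33% against 1.49% of all genes, and none rose. Their mean level was 3.65 to 4.01 in naive and 3.29 to 3.62 in resilient mice, without overlap. The part of astrocyte number in the falls of Fabp7 and the S100 genes was not tested.

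Ribosomal protein genes, which encode the structural proteins of the cytosolic ribosome and share a pyrimidine-rich start of their messages that mTOR controls, fell together. Of 77 tested genes 29 fell and none rose, against the 1.49% of all genes that fell, all 77 differences were negative and the median was -0.55. The mean over the 77 genes was 7.33, 7.63, 7.96, 7.17 and 7.12 in naive and 6.83, 6.96 and 6.999 in resilient mice. The resilient mice were close to each other and below all naive mice, and naive 2 and 3 were highest. Rpsa, a component of the small subunit, was at 8.98, 9.21, 9.51, 8.52 and 8.40 in naive and 8.24, 8.39 and 8.50 in resilient mice (-0.71 ± 0.14, adjusted p = 0.0293), and Rpl38, of the large subunit, at 8.93, 9.25, 9.50, 8.44 and 8.42 and 8.25, 8.27 and 8.44 (-0.73 ± 0.14, adjusted p = 0.0291). In both the naive mice of slide 3 lay near the resilient mice. Rps3 fell by 0.81 ± 0.14 through its brightest probe, for which the difference was -0.73 within slide 1 and -1.03 within slide 2, while its other probe gave -0.15 and -0.40.

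The size of the ribosomal difference depended on slide and scaling. The median was -0.42 within slide 1 and -0.80 within slide 2. It was -0.39 with normexp background correction (42 genes lower), -0.17 with quantile normalisation (9 genes lower) and -0.24 with brightness in the fit (0 genes lower), and its sign was negative under each of them. In susceptible mice the median was -0.40 against the same naive mice. The dimmer naive arrays of slides 1 and 2 had the highest ribosomal level; the part of brightness was not tested.

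**Figure D3:**
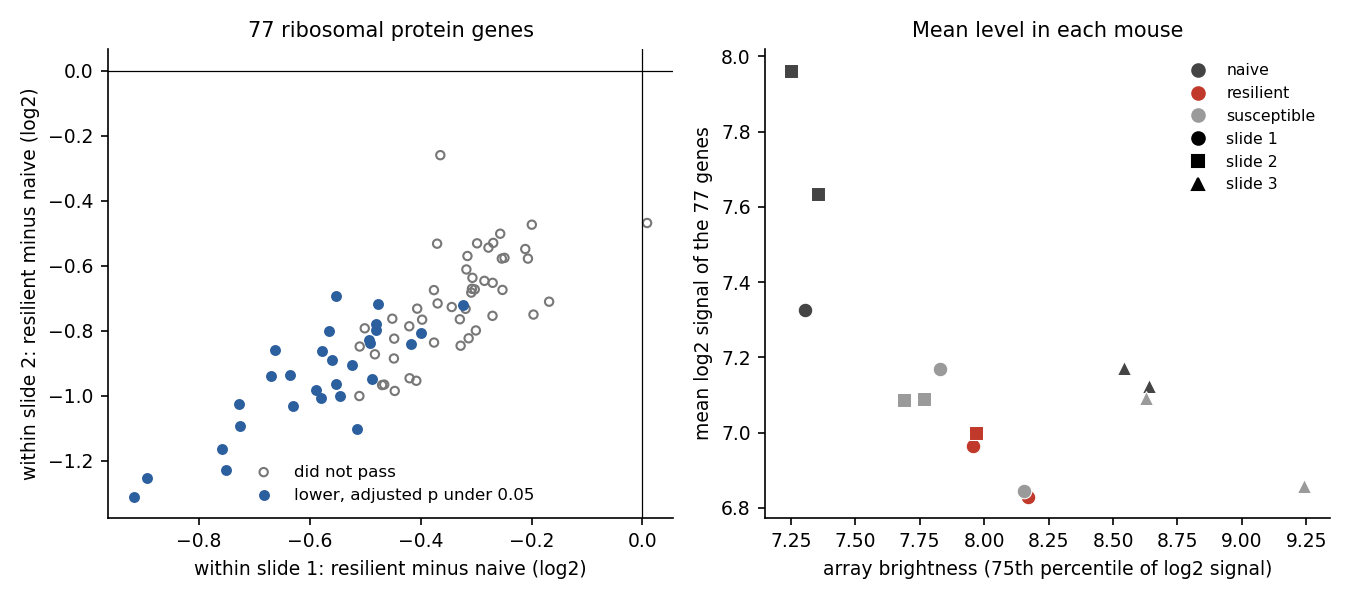
Left, resilient minus naive (log2) within slide 1 and within slide 2 for the 77 ribosomal protein genes, filled where adjusted p was under 0.05. Right, the mean log2 signal of the 77 genes in each mouse against array brightness (75th percentile of log2 signal), with colour for the group and marker for the slide; naive 3, at 7.96, is highest on the dimmest array.

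Oxidative phosphorylation genes, which encode the respiratory chain, showed a smaller shift, mainly within slide 2. Cox6a1 (-0.60 ± 0.13, adjusted p = 0.037) and Cox6c (-0.76 ± 0.17, adjusted p = 0.0386), subunits of cytochrome c oxidase, fell among 41 genes (4.88%, against 1.49% of all genes). None rose, and the median of -0.13 turned to 0.02 with quantile normalisation. The list's median was -0.0015 within slide 1 and -0.29 within slide 2. Of genes that are not protein-coding, 440 of the 14453 tested, 21 were among the 216 lower genes and 1 among the 295 higher genes. Rnu3b1, a U3 RNA that guides the processing of ribosomal RNA, was at 2.04, 2.40, 2.45, 1.29 and 1.14 in naive and 1.29, 0.66 and 0.83 in resilient mice (-1.21 ± 0.23, adjusted p = 0.0293). The resilient mice lay below naive 1 to 3 and overlapped with naive 4 and 5. Nop9, a factor of small subunit assembly, fell by 1.20 ± 0.20, and Trub1, a pseudouridine synthase, by 1.26 ± 0.19 on the log2 scale. How the labelling primes RNAs of this kind is not given in the sources used here.

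The largest falls among single genes mostly carried a step between slides. Car7, a brain carbonic anhydrase, was at 4.69, 5.55, 4.85, 3.57 and 3.83 in naive and 3.06, 3.19 and 3.37 in resilient mice and fell by 1.50 ± 0.27 (adjusted p = 0.0291). Spem2, a gene named from its accession and known from spermatids, was at 3.64, 3.91, 4.37, 2.88 and 2.85 and 2.33, 1.46 and 2.11 and fell by 1.67 ± 0.35 (adjusted p = 0.0352). In both the resilient mice lay below all naive mice, and naive 4 and 5 lay nearer to them than naive 1 to 3.

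For 9 of the 15 largest falls naive 4 or 5 reached the resilient range. Lgals3bp, a secreted galectin-binding glycoprotein, was at 5.76, 6.11, 5.68, 4.22 and 4.27 in naive and 4.35, 4.43 and 4.30 in resilient mice (-1.29 ± 0.26, adjusted p = 0.0306). Its dimmer second probe gave -0.19 within slide 1 and 0.25 within slide 2, against -1.37 and -1.59, so that this fall rests on 1 probe. Slc49a4, a lysosomal transporter, was at 3.33, 3.96, 4.17, 0.08 and 0.22 and 2.13, 2.44 and 2.36 (-1.17 ± 0.27, adjusted p = 0.0398), so that the naive mice of slide 3 lay far below the resilient mice. Clec4a2, a myeloid lectin receptor (-1.37 ± 0.27), Hfm1, a meiotic helicase (-1.22 ± 0.26), Tas1r3, a taste receptor subunit (-1.19 ± 0.28), and Tulp2 (-1.17 ± 0.19) also fell, each with naive 1 to 3 above the resilient mice and naive 4 or 5 within or below the resilient range. Gucy1b2, a subunit of soluble guanylate cyclase (-1.23 ± 0.26), and Dlx3, a homeobox factor (-1.20 ± 0.23), fell without overlap. Several of these genes are known from other tissues, and probe specificity was not tested.

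Antioxidant genes were mixed but leaned downward, with 1 rise and 3 falls among 23, against the 2.04% of all genes that rose and the 1.49% that fell. Of their differences 7 were positive and 16 negative, with a median of -0.21. Hmox1, the heme-degrading enzyme heme oxygenase 1, was at 0.70, 1.06, 0.53, -0.55 and -0.43 in naive and -0.35, -0.16 and -0.65 in resilient mice (-1.06 ± 0.21, adjusted p = 0.0313), with resilient mice below naive 1 to 3 and among naive 4 and 5. Its other probe, above background on all arrays and nearly as bright, went the other way, at 0.29 within slide 1 and 0.21 within slide 2 against -0.96 and -1.44, so that the fall is uncertain. Cat, the peroxide-degrading catalase (-0.59 ± 0.11), and Gpx4, a lipid peroxidase (-0.56 ± 0.14), fell. For Cat naive 4 and 5 (1.95 and 2.13) lay below all resilient mice. A dimmer probe of Cat gave -0.28 within slide 1 and 0.25 within slide 2. Txnrd1, cytosolic thioredoxin reductase, rose by 0.43 ± 0.09 (adjusted p = 0.0369) without overlap.

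Synaptic gene groups gave no calls, but 3.54% of all genes passed, and at that share lists of this size hold few calls. None of 23 glutamate receptor genes, 22 postsynaptic density genes, 28 presynaptic genes, 15 GABA receptor genes or 24 neuropeptide and stress hormone genes passed, and the medians ran from 0.01 to 0.23. In that order 9, 4, 10, 5 and 7 of them had an unadjusted p under 0.05 in limma, against 26.7% of all genes. The smallest p in these groups belonged to Sv2b, a synaptic vesicle protein (0.46 ± 0.12, adjusted p = 0.053), Bsn, an active zone scaffold (0.48 ± 0.15, adjusted p = 0.0796), Lrrtm3, a postsynaptic adhesion protein (-0.34 ± 0.10, adjusted p = 0.0714), Dlgap2 (0.27 ± 0.09), Grm2 (-0.36 ± 0.11), Grm5 (-0.48 ± 0.16), Gabbr2 (0.48 ± 0.17), Gabrb1 (0.51 ± 0.20), Sstr2 (1.05 ± 0.32) and Adcyap1 (0.39 ± 0.13). The signs of Grm5 and Lrrtm3 turned with the mean of a gene's probes, and that of Sstr2 with normexp. Interferon response genes (22) and cholesterol synthesis genes (20) had no call either, with medians of -0.12 and 0.11; Psmb9, an immunoproteasome subunit, was nearest at -0.64 ± 0.17 (adjusted p = 0.0521), and Insig1 and Cyp51 were at 0.45 ± 0.16 and 0.29 ± 0.10.

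Markers of other cell types varied between mice within each group. The mean of 12 meningeal fibroblast genes was 1.17, 0.32, 2.04, 1.87 and 1.16 in naive and 0.24, -1.12 and 1.61 in resilient mice, with overlap, none passed, and the list's median was -1.55 within slide 1 and 0.71 within slide 2. The mean of 11 oligodendrocyte genes was highest in naive 2 (3.05) and ranged otherwise from 1.30 to 2.22 in these groups, with no call. The mean of 8 erythroid genes ran from -0.72 to 0.57 in naive and from -0.08 to 1.62 in resilient mice, and the globin Hbb-bs was at 1.17 ± 0.77. Blood leukocyte genes (7 tested) averaged -2.77 to -2.07 in naive and -1.83 to -1.45 in resilient mice. In that list 3 differences were positive and 4 negative, the median was -0.02 and none passed. S100a8 and S100a9, which did not pass, had the largest differences.

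Of 12 striatal genes Adora2a fell (-0.50 ± 0.09), or 8.33% against 1.49% of all genes. The list as a whole did not follow it, with 6 positive and 6 negative differences. Its median was 0.004, and 0.11 within slide 1 and -0.15 within slide 2. Of 8 oligodendrocyte precursor genes Gpr17 rose (0.73 ± 0.12), or 12.5% against 2.04% of all genes. Microglia (13 genes), perivascular macrophage (6), endothelial (10), pericyte or smooth muscle (9), choroid plexus (5), ependymal (7), inhibitory neuron (10), pan-neuronal (10) and cortical excitatory neuron (12) lists had no call. The marker lists are short, and 3.54% of all genes passed. With the mean of the meningeal markers in the fit 271 genes passed, 138 higher and 133 lower. The part of vessel and meninges content in the differences above was not tested.

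**Figure D4:**
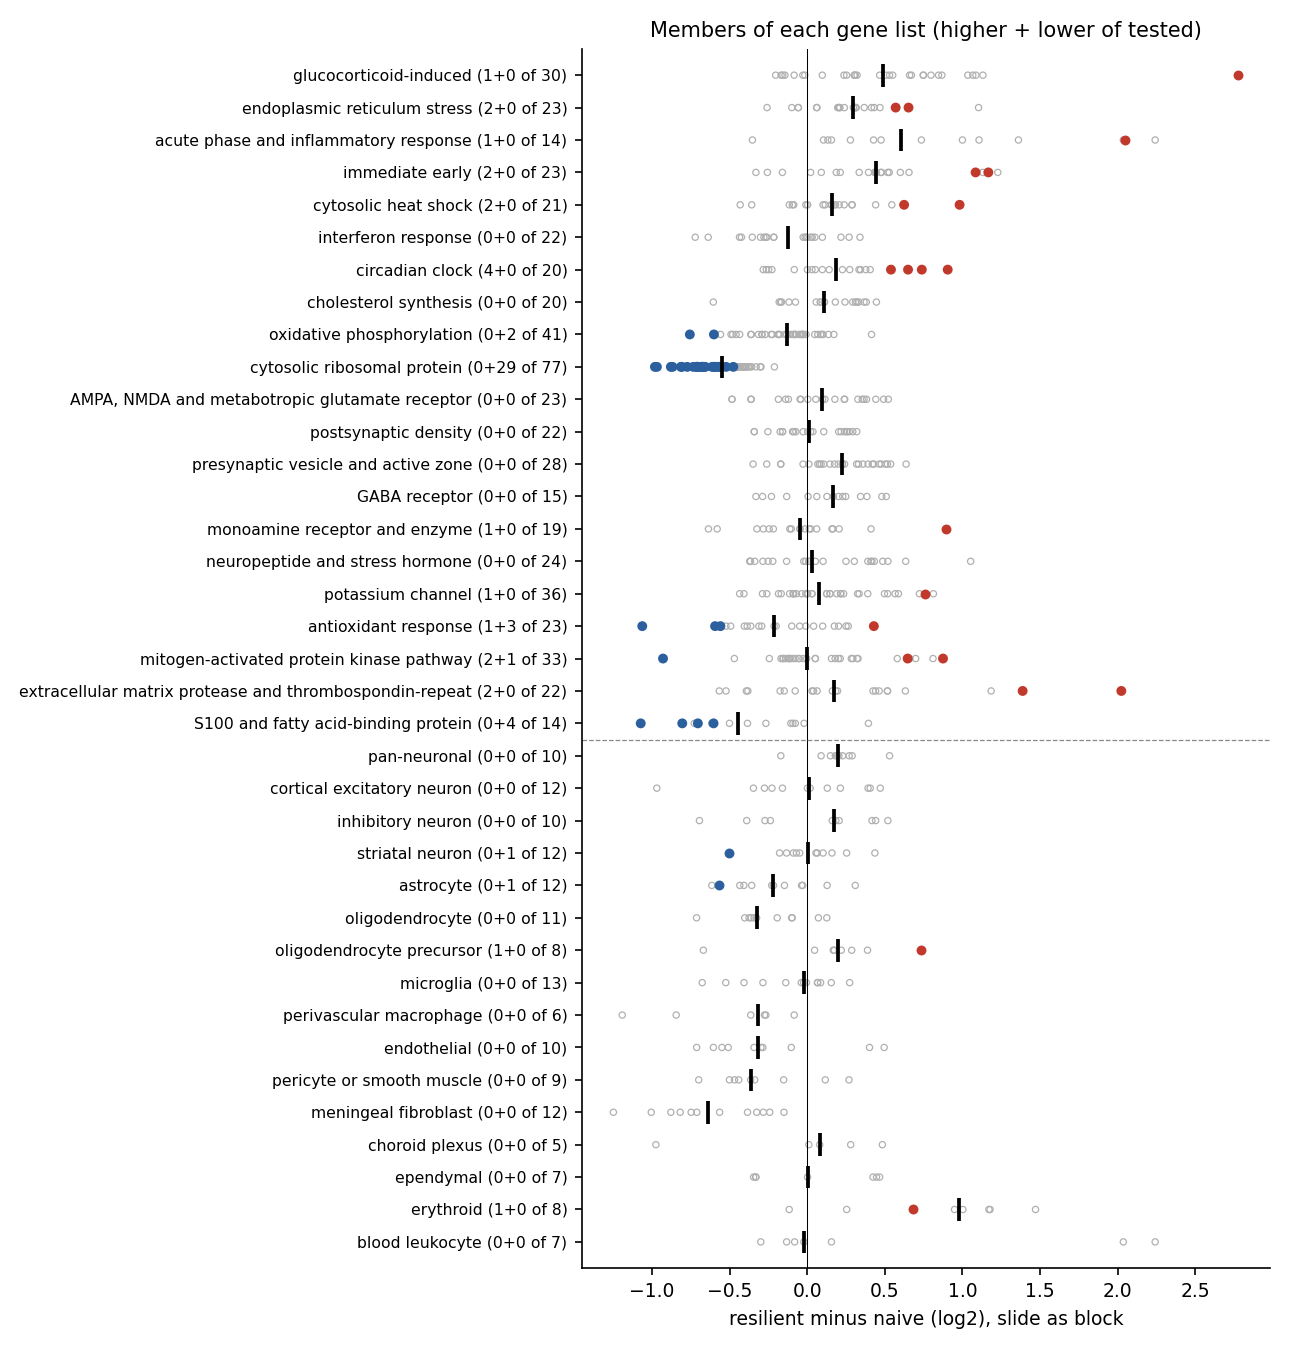
Each row is 1 gene list, functional lists above the dashed line and cell type markers below it, each point a tested member at its resilient minus naive difference (log2, slide as block), filled red or blue where it passed, with a bar at the list's median. The ribosomal protein list lies wholly below 0, and the clock list holds 4 filled points above 0.

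Resilient and susceptible mice share the naive controls, so their comparisons with naive mice are set side by side only. Of the 511 genes 470 also passed in the same direction in susceptible against naive mice, where 2213 genes (15.3%) passed, and 41 did not. The test of the difference itself, resilient against susceptible, passed 0 genes (0%) in limma, with 279 genes (1.93%) at an unadjusted p under 0.05 and a smallest adjusted p of 1. None of the 41 is thereby shown to be particular to resilient mice.

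The 5 smallest unadjusted p between resilient and susceptible mice belonged to Wif1 (1.49 ± 0.28; unadjusted p = 0.000148), Fancb (-0.44 ± 0.11; unadjusted p = 0.0015), Erich1 (1.44 ± 0.36; unadjusted p = 0.00156), P2rx7 (0.64 ± 0.16; unadjusted p = 0.00165) and Nox1 (-0.37 ± 0.10; unadjusted p = 0.00207), given as resilient minus susceptible from limma. P2rx7, an ATP-gated channel of microglia, had -1.77, -1.19 and -0.81 as the lowest, median and highest susceptible values and -0.76, -0.86 and -0.69 in resilient mice, and against naive mice it was at 0.20 ± 0.17 in resilient and -0.45 ± 0.13 in susceptible mice. Fancb, a Fanconi anemia core protein, had susceptible values of -1.80, -1.64 and -1.52 (lowest, median and highest) and resilient values of -1.90, -2.02 and -2.13, and Nox1, an NADPH oxidase, changed sign to 0.14 without the slide block. Against the same naive mice Car7 was -1.50 ± 0.27 in resilient and -1.16 ± 0.21 in susceptible mice, and Trub1 -1.26 ± 0.19 and -0.96 ± 0.15. Fabp7 was -1.07 ± 0.20 and -1.17 ± 0.15, and Hspa5 0.57 ± 0.13 and 0.61 ± 0.10.

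**Figure D5:**
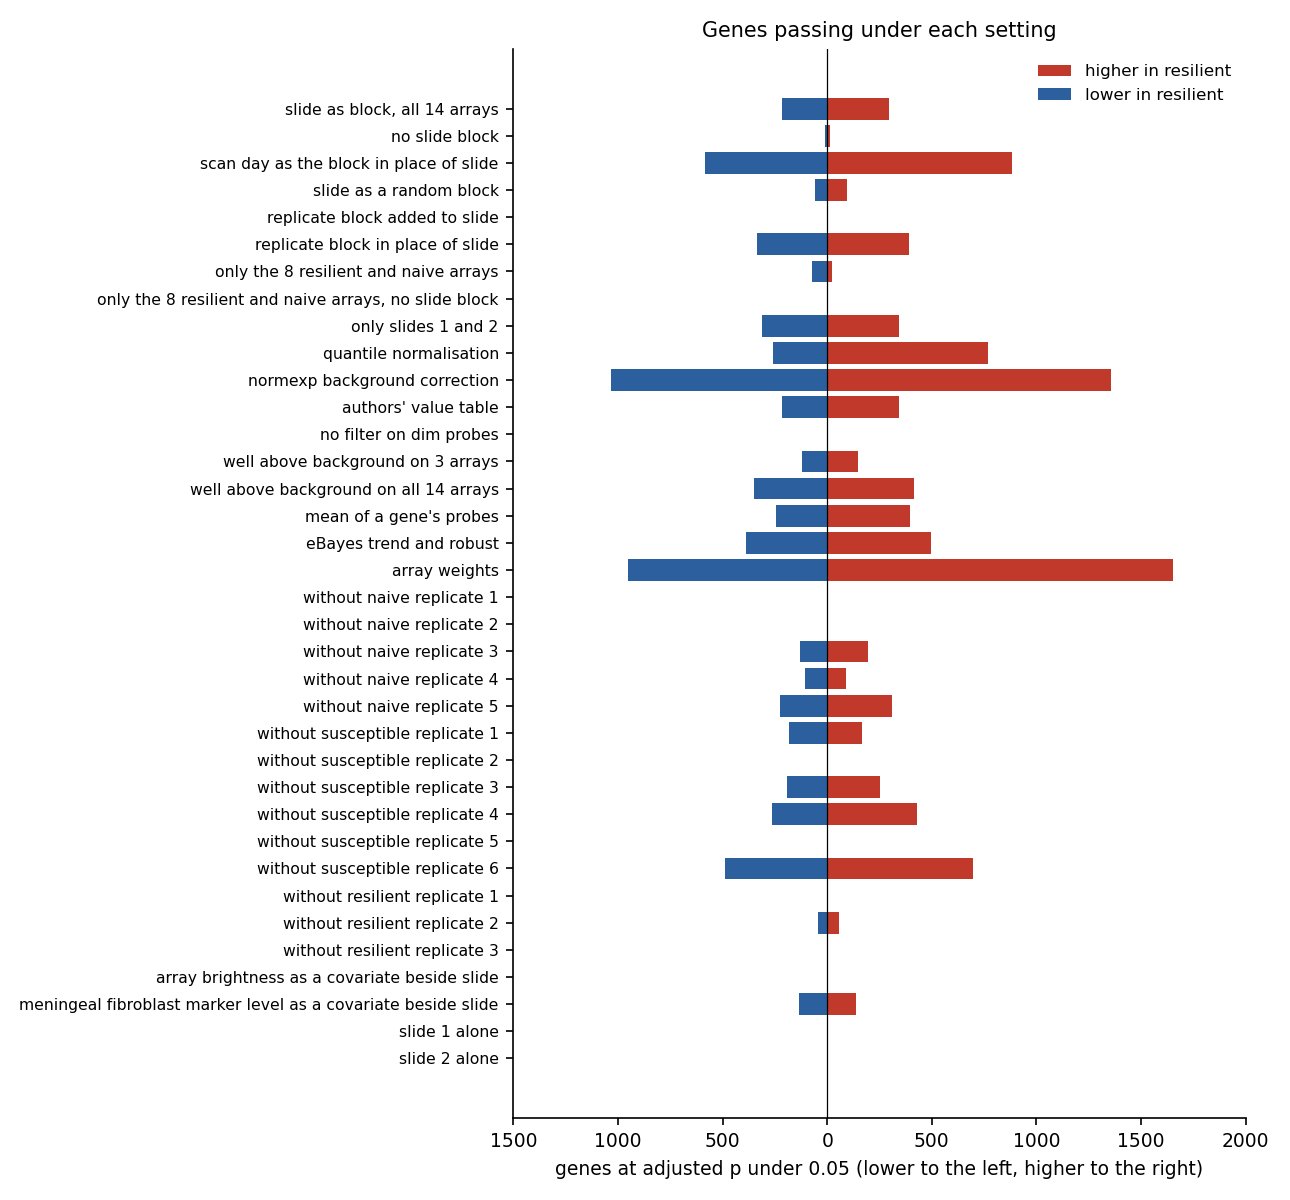
Number of genes at adjusted p under 0.05 in resilient against naive mice under each setting, higher to the right and lower to the left of 0. The counts run from 0 with brightness or the replicate block in the fit to 2604 with array weights, against 511 in the setting reported above.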

How the data were processed

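Expression was measured in 14 mice on 1 array each. The spot intensities in the deposited tables are linear and were written by Agilent Feature Extraction 11.0.1.1, per the file headers and the submitters' processing notes. That software had subtracted the background from the intensity used here and had not scaled it between arrays, per the file headers. A second table deposited by the authors gives log2 values; set against the scanner values, each of its columns had r = 1 and was shifted by 1 constant, with medians from -3.08 to -2.73. Its direction and centring follow from this, and it served as an alternative.

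Of 62976 spots per array 3671 controls and 104 to 184 outlier spots were left out, and spots of a probe were averaged (55681 probes). The log2 signal minus each array's 75th percentile was tested for a probe if every array of 1 or more groups had it well above background. Names came from transcript accessions matched to RefSeq (GRCm38.p6, used for names and promoter windows; the headers name mm9, whose coordinates were not used): 27509 probes were named and 28172 were not. The probe with the highest mean signal stood for its gene, and 5 genes with an outlier spot were left out. limma 3.58.1 in R 4.3.3 (lmFit, eBayes) was run on 3 groups with slide as a fixed block, with Benjamini-Hochberg adjustment over 14453 genes. The pipeline was tested on simulated arrays of 14453 genes: for resilient against naive it recovered 22.4% of log2 changes of 0.5, 85.1% of changes of 1 and 97.0% of changes of 2. It called 149 genes there, of which 13 were unchanged. The simulated noise was independent between genes and arrays and held no effect of brightness or slide row. How well changes are recovered in the real arrays was therefore not tested. The number of arrays limits the precision.

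Replicate numbers in the labels are shared by the groups. The deviations of same-numbered naive and resilient mice from their group means correlated at 0.11, 0.32 and 0.28 for numbers 1, 2 and 3, against -0.35 to 0.15 for different numbers. Slide was not removed from these deviations. Pairs 1 and 3 shared a slide, and pair 2 did not. Pair 1 lay below naive 1 with resilient 2 (0.15), which also share slide 1. The labels give no origin for a pairing, so whether the numbers pair the mice is not settled. If they do, the main fit ignores the pairing. A fit with a block for the replicate number added to slide was therefore run beside it. The fit with this block called 0 genes, and all 511 differences kept their sign.

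Genes were named by rule: the 15 largest rises and falls among genes above background on all arrays of both groups, the 5 largest among dimmer genes, up to 4 members of each functional list that passed (the 2 smallest p where none passed), the 5 smallest p for resilient against susceptible, and 9 genes fixed by name. Unnamed clones and some genes the rule takes are not reported here. The members, the 37 gene lists, the rule and the tests were chosen with earlier results of these data known. Fits with brightness, with meningeal markers and with slide 1 or slide 2 alone were added after the data were seen.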

Additional observations from a re-analysis of the deposited data

How the results depend on the processing

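The 511 genes (295 higher, 216 lower) became 22 (13 higher, 9 lower) without the slide block, 150 (93 and 57) with slide as a random block, and 1467 (881 and 586) with scan day in place of slide. They became 95 (22 and 73) with only the 8 resilient and naive arrays and 0 with these and no block (2551 at an unadjusted p under 0.05). Quantile normalisation gave 1030 (769 and 261), normexp 2393 (1358 and 1035), trend and robust eBayes 883 (497 and 386) and array weights 2604 (1652 and 952). No filter on dim probes gave 0 (5194 unadjusted), a filter on 3 arrays 271 (149 and 122) and on all 14 arrays 767 (416 and 351). A threshold of 0.01 gave 0 and of 0.1 gave 1930. Added after the data were seen, brightness as a covariate gave 0 (531 unadjusted), meningeal markers 271 (138 and 133), slide 1 alone 0 (1759 unadjusted) and slide 2 alone 0 (1507 unadjusted). Only slides 1 and 2 (655), the mean of a gene's probes (641) and the authors' value table (562) stayed within 1.5 times of the main count. Leaving out 1 mouse gave 0 to 1187 genes, 0 to 697 higher and 0 to 490 lower, and 0 to 1 between resilient and susceptible mice. The cause of these changes was not tested beyond the settings themselves.

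The replicate block added to slide left 0 genes in either direction (3430 unadjusted), and in place of slide it gave 727 (391 and 336). With it added, all 61 calls taken by the naming rule were lost (adjusted p from 0.0588 to 0.129) and kept their sign.

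Signs turned for 5 named genes, none of them called apart from Adamts3: Nox1 between resilient and susceptible mice to 0.14 without the slide block, Sstr2 to -0.087 and Adamts3 to -0.025 with normexp, and Grm5 to 0.10 and Lrrtm3 to 0.19 with the mean of a gene's probes. Adamts3 and Sstr2 were not well above background on every naive array.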
